A study of Mus musculus with 9 samples.

Results

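Gene expression in the brains of mice of the genotype labelled TG that had received NM-101 was set against that of wild-type (WT) mice that had received placebo. These groups make up 6 of the 9 RNA-seq libraries of the study, 3 per group, and were chosen by their genotype and treatment labels. The other 3 libraries, from TG mice given placebo, were used here only to show which differences between TG NM-101 and WT placebo were also present without NM-101. The labels do not define the TG allele or NM-101, and give no strain, age, sex, dose or duration. The study's title concerns alpha-synuclein that neurons release and its effects in oligodendrocytes. All 9 samples carry the labels brain and oligodendrocyte. The extraction kit was one meant for FFPE (formalin-fixed, paraffin-embedded) tissue. Library preparation used QuantSeq, a method that sequences near the 3' ends of transcripts. Nothing in the labels says that the samples of a group came from separate animals, so the spread between them may be technical.

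Oligodendrocytes wrap axons in myelin, a stack of membranes rich in cholesterol and galactolipids and held together by proteins such as myelin basic protein (Mbp). Alpha-synuclein is a presynaptic protein of neurons, and its aggregates mark Parkinson disease, dementia with Lewy bodies and, inside oligodendrocytes, multiple system atrophy. Released aggregates are known to be sensed by microglia and other cells through Toll-like receptors such as Tlr2, which signal through Myd88 to the transcription factor NF-kB. Astrocytes clear glutamate through the transporter Slc1a2, hold zinc in metallothioneins, and respond to stress hormones.

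The units of the groups differ, and this limits every comparison with WT. WT columns hold counts, whereas the TG columns hold values read as log2(FPKM + 1), that is, fragments scaled to transcript length and to library depth. WT counts were divided by the library total and by transcript length, which gave the same kind of level, x, and all levels below are log2(x + 1). The separate normalization does not allow a test, and TG NM-101 and WT placebo are compared here by description only. A gene is called apart here when all 3 TG NM-101 libraries lay on the same side of all 3 WT placebo libraries, both in level and in rank within the library, with a mean difference of at least 0.5. A gene is called apart from both when the TG NM-101 libraries also lay outside all 3 TG placebo libraries in the same direction. The latter criterion matters because an error in a transcript length shifts TG placebo and TG NM-101 alike and cancels between them, but does not cancel against WT.

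WT totals were 10612290, 14041951 and 11774367 counts; the depth of the TG libraries was not used here. Across the 12410 genes compared, levels correlated at r of 0.983 to 0.986 between TG NM-101 libraries, 0.985 to 0.990 between WT placebo libraries and 0.951 to 0.959 between libraries of these groups, given as a description over genes that share a library. Neuronal transcripts were abundant for libraries labelled oligodendrocyte: Snap25, a synaptic vesicle fusion protein, stood between 9.99 and 10.15 in TG NM-101 and between 10.46 and 10.62 in WT placebo. Snord42a, a small nucleolar RNA of 65 bases, was listed at 17.12 in TG NM-101 replicate 3, or 21.6% of that library's summed level, and at 0 in the other TG libraries. Transcripts of the choroid plexus, the epithelium that makes cerebrospinal fluid, varied within each group: Ttr, its main secreted carrier protein, stood at 11.56, 1.74 and 4.15 in WT placebo, and in TG NM-101 at 5.17 and 5.96 in replicates 1 and 3 and far higher in replicate 2.

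Of the 12410 genes, 1249 (10.1%) were apart higher in TG NM-101 than in WT placebo and 603 (4.86%) were apart lower. These shares are the background for the counts of every gene list below. The median difference over all genes was 0.05. TG placebo against the same WT libraries gave 1046 genes apart higher (8.43%) and 679 apart lower (5.47%), and this comparison shares its WT samples with the first. Apart from both other groups were 273 genes higher in TG NM-101 (2.20%) and 42 lower (0.338%). Without TG placebo replicate 1, which differed from the other TG placebo libraries, those counts were 510 and 132. Without TG NM-101 replicate 2 they were 507 and 89, and without TG NM-101 replicate 1 the lower count was 100.

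The difference from WT depended on transcript length. In the 94 genes under 500 bases the median difference between TG NM-101 and WT placebo was 0.78, and 51.1% of them were apart higher. From 500 to 700 bases the median was 0.50 over 218 genes, and from 1500 to 2500 bases it was 0.01 over 2870 genes, of which 4.81% were apart higher. Above 6000 bases the median was 0.15 over 1396 genes. TG placebo showed the same shape with smaller values at the short end, 0.43 under 500 bases and 0.21 from 500 to 700 bases, and the same 0.15 above 6000 bases. TG NM-101 exceeded TG placebo by 0.345 under 500 bases, a difference within a single unit. All 3 TG NM-101 libraries stood above every TG placebo and WT placebo library in the shortest genes, at 0.655, 0.809 and 0.842 against 0.261 to 0.584 in TG placebo. To see how far this trend carried single genes, the running median over genes of like length was taken out of each library, an alternative added after the data were seen. Then 1021 genes were apart higher (8.23%) and 717 apart lower (5.78%); 1004 and 598 of these were the same genes as before. The share of apart genes that were higher went from 67.4% to 58.7%. Apart from both groups were then 188 genes higher (1.51%) and 76 lower (0.612%). By rank alone and without the criterion on the size of the difference, which changes both choices together, 2079 genes were outside WT higher and 2610 lower.

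**Figure D1:**
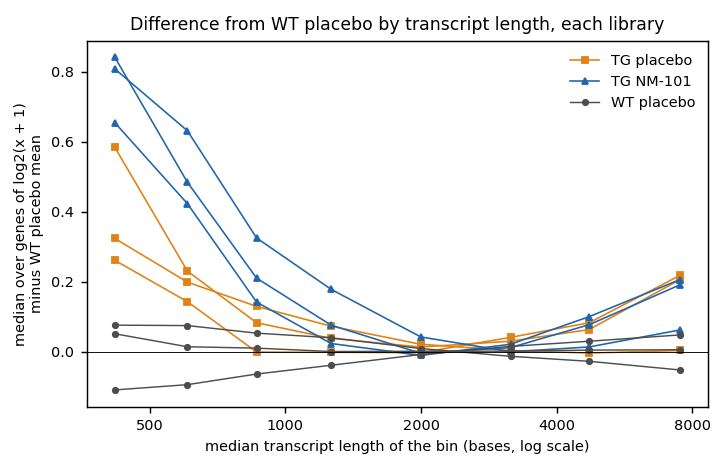
Median over genes of log2(x + 1) minus the WT placebo mean, for each of the 9 libraries (y axis), against the median transcript length of 8 length bins in bases (x axis, log scale). The 3 TG NM-101 libraries reach 0.655 to 0.842 in the shortest bin, above all 3 TG placebo libraries (0.261 to 0.584), and all 9 lie near 0 around 2000 bases.

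Among genes apart from both groups, the transcription factors Pou3f1 and Sox9 were higher in TG NM-101, and their transcripts, of 3849 and 4135 bases, are longer than the short ones in which the trend was steep. Pou3f1 (chromosome 4, 124657646 to 124660655, GRCm38; also known as Oct6) is a POU-domain factor of Schwann cells, the oligodendrocyte lineage and cortical neurons. It stood at 4.38, 4.26 and 4.58 in WT placebo and at 4.33, 4.52 and 4.15 in TG placebo. In TG NM-101 it stood at 5.33, 5.17 and 5.30. The WT and TG placebo values overlapped, and all TG NM-101 values lay above them, by 0.85 ± 0.11 over WT (SE, n = 3 per group) and by 0.93 over TG placebo. Sox9 (chromosome 11, 112782210 to 112787757) specifies and marks astrocytes. Its levels were 4.14, 3.90 and 3.68 in WT placebo, 3.88, 3.89 and 3.70 in TG placebo and 4.62, 4.54 and 4.61 in TG NM-101, a difference from WT of 0.68 ± 0.14 (SE, n = 3 per group). The differences from WT were 0.84 for Pou3f1 and 0.64 for Sox9 with the length trend removed. The length used for Pou3f1, 3849 bases, exceeds the span of its gene given above. A length set too long lowers the WT level, so the difference of Pou3f1 from WT may be overstated. Its difference from TG placebo does not rest on that length.

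TG NM-101 and TG placebo share a unit and could be tested with limma, which called 16 of the 12410 genes at an adjusted p under 0.05 (12 higher, or 0.0967%, and 4 lower, or 0.0322%). At an unadjusted p under 0.05 there were 1324 higher (10.7%) and 523 lower (4.21%). Of the calls, 11 of the 12 higher were among the 273 genes apart from both, as were 3 of the 4 lower. Both criteria use the same TG NM-101 and TG placebo libraries, so this overlap and the adjusted p of genes apart from both are no separate support. Pou3f1 and Sox9 each had a limma adjusted p of 0.0443. These calls were fragile: over 11 other settings the adjusted p of each ran from 0.00126 to 0.395, and 3 settings for Pou3f1 and 2 for Sox9 gave a call. Removing the length trend left 2 genes called by limma, Cmss1 and Zc3h7a, both listed at 0 in all TG NM-101 libraries. Without TG placebo replicate 1 limma called 2194.

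Fam107a and the metallothioneins Mt1 and Mt2, which astrocytes express and glucocorticoids induce, were also higher than in both groups. Fam107a (chromosome 14, 8296270 to 8317607) encodes an actin-binding protein. It stood at 7.56, 7.74 and 7.38 in WT placebo, at 8.07, 7.65 and 7.79 in TG placebo and at 8.69, 8.70 and 8.65 in TG NM-101. The TG NM-101 values were almost level with each other and exceeded WT by 1.12 ± 0.10 (SE, n = 3 per group; 1.11 with the length trend removed; limma adjusted p = 0.0443 against TG placebo). Metallothioneins are small cysteine-rich proteins that bind zinc and copper. Mt1 (chromosome 8, 94178883 to 94180327) stood at 9.91, 9.68 and 10.13 in WT placebo, at 10.56, 10.28 and 10.37 in TG placebo and at 11.15, 11.32 and 10.95 in TG NM-101. TG placebo lay between the other groups without overlapping either. Mt2 stood at 9.31, 9.34 and 9.88 in WT placebo, at 9.71, 9.18 and 9.47 in TG placebo and at 10.52, 10.53 and 10.35 in TG NM-101. Here the WT and TG placebo values overlapped. Both transcripts are short, at 549 and 511 bases. After removal of the length trend the difference from WT was 0.68 for Mt1, which stayed apart from both, and 0.33 for Mt2, which did not stay apart (0.96 before). The limma adjusted p against TG placebo was 0.0704 for Mt1 and 0.0443 for Mt2. Mt3, the brain-enriched member, differed from WT by 0.70 and by 0.11 with the length trend removed.

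**Figure D2:**
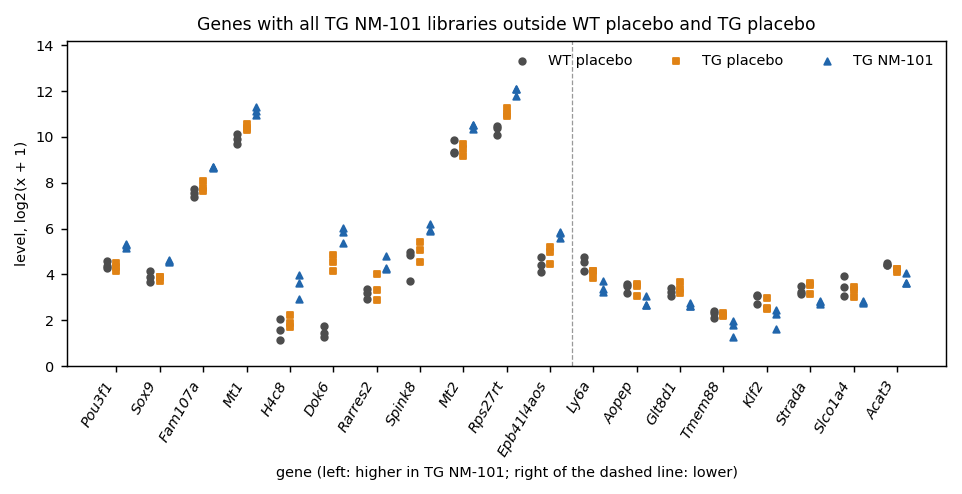
Level, log2(x + 1), of genes in each of the 9 libraries (y axis; 1 point per library, marked by group). To the left of the dashed line all 3 TG NM-101 libraries lie above the WT placebo and TG placebo libraries, and to the right they lie below; Dok6 is the gene in which TG placebo also stands far from WT placebo.

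The other genes named by rank among those higher than both groups were of mixed kinds. H4c8, a replication-dependent histone H4 gene with 6 to 21 counts in the WT libraries, stood at 1.14 to 2.06 in WT placebo, 1.69 to 2.23 in TG placebo and 2.94 to 4.00 in TG NM-101. Its means in WT placebo and TG placebo, 1.59 and 1.94, were under the naming level of 2, which it passed through TG NM-101 (3.52). Rarres2, which encodes the chemoattractant chemerin, stood at 2.95 to 3.37, 2.87 to 4.01 and 4.24 to 4.80 in the same order. Spink8, a serine protease inhibitor gene expressed in the hippocampus, stood at 3.73 to 4.97, 4.54 to 5.43 and 5.88 to 6.21. Epb41l4aos, a noncoding RNA of 418 bases, differed from WT by 1.31, and by 0.55 with the length trend removed. Rps27rt, a near-identical copy of a ribosomal protein gene whose reads may be shared with it, differed from WT by 1.67. Of the 273 higher genes, 83 were under 1000 bases, as were 839 (6.76%) of all genes compared, and 160 of the 273 stayed apart from both when the length trend was removed.

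Genes lower than in both groups included endothelial genes. Ly6a, a surface protein of brain endothelium, stood at 4.56, 4.78 and 4.15 in WT placebo, at 3.85, 4.15 and 4.16 in TG placebo and at 3.70, 3.36 and 3.22 in TG NM-101. Its difference from WT was -1.07 ± 0.23 (SE, n = 3 per group) and its limma adjusted p against TG placebo was 0.124. Slco1a4, an organic anion transporter of the blood-brain barrier, stood at 3.04 to 3.93 in WT placebo, 3.03 to 3.47 in TG placebo and 2.77 to 2.86 in TG NM-101. Klf2, a flow-responsive transcription factor of endothelium, stood at 2.71 to 3.09, 2.50 to 2.97 and 1.61 to 2.45. In each of these genes the TG placebo and WT ranges overlapped while TG NM-101 lay below. Genes listed at 0 in any library were left out of this ranking, and the 3 lower genes that limma called among the 42, Lars2, Zc3h7a and Cmss1, are given further on. The remaining genes named by rank were Aopep (an aminopeptidase), Glt8d1 (a glycosyltransferase), Tmem88, Strada (a pseudokinase that activates the kinase Lkb1) and Acat3 (an acetyl-CoA acetyltransferase), with differences from WT between -0.66 and -0.51. Tmem88 had a mean of 1.67 in TG NM-101, under the naming level of 2, which it passed through the other groups. None of these 8 lower genes had a limma adjusted p under 0.05 against TG placebo; the smallest was 0.0836, for Glt8d1. Of the 42 lower genes, 36 stayed apart from both with the length trend removed.

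Lars2, the mitochondrial leucyl-tRNA synthetase (chromosome 9, 123366927 to 123462675), was listed at 0 in all 3 TG NM-101 libraries. It stood at 11.86, 12.04 and 11.56 in WT placebo, from 153046, 229501 and 138265 counts, and at 12.74, 10.12 and 11.34 in TG placebo. Zc3h7a, Cmss1 and Filip1l, named after their values were seen, were the other genes listed at 0 in all TG NM-101 libraries and above 0 elsewhere with a mean of at least 1 in the other 6 libraries. Zc3h7a, a zinc finger protein gene on chromosome 16, stood at 2.77 to 2.94 in WT placebo and 2.72 to 3.69 in TG placebo. Cmss1 stood at 3.27 to 3.44 and 2.87 to 3.34, and Filip1l, which lies within the span of Cmss1 on chromosome 16, at 1.08 to 1.25 and 0.695 to 1.09. No gene of that level showed the reverse pattern, at 0 in all WT libraries and above 0 in all others. Lars2 serves mitochondrial translation. A listed 0 can be a failed estimate where the values are not counts, which was not tested here, so no fold change is given. The limma call on Lars2 against TG placebo (adjusted p = 0.0443) rests on these zeros. Of the 4 lower limma calls, Lars2, Zc3h7a and Cmss1 are 3 and the small nuclear RNA Rnu12 is the other, which was listed at 0 in all WT placebo and TG NM-101 libraries.

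Among genes above 0 in every library with a mean level of at least 2, which leaves out Lars2, Zc3h7a and Cmss1, most of the largest differences from WT were shared by both TG groups. The 12 of these genes furthest above WT ran from a difference of 4.84 to one of 2.80, and in 11 of them TG placebo was apart from WT in the same direction. The exception was Rmrp, an RNA of the mitochondrial RNA processing ribonuclease, at 6.51, 3.44 and 7.85 in TG placebo. Bc1, a short RNA of neuronal dendrites made by RNA polymerase III, headed them. It stood at 7.95, 7.83 and 7.60 in WT placebo, at 11.88, 11.85 and 12.20 in TG placebo and at 12.38, 12.73 and 12.79 in TG NM-101. Dok6, an adaptor of receptor tyrosine kinases, stood at 1.47, 1.77 and 1.28 in WT placebo, at 4.83, 4.55 and 4.15 in TG placebo and at 5.86, 5.39 and 6.04 in TG NM-101. The ribosomal protein gene Rps20, the RNA-binding mitochondrial gene Slirp, the iron-sulfur assembly factor Bola2, Dnajc15, Timm17a (a subunit of the mitochondrial import channel), Cabp7, Sdhaf3, Gabrb1 (a GABA-A receptor subunit) and Taf10 made up the rest. Of the 12, Dok6, Rps20, Bola2 and Gabrb1 were also apart from TG placebo.

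The 12 genes furthest below WT by the same choice, again without those listed at 0 in TG NM-101, ran from -3.19 to -2.18, and in 12 of 12 TG placebo was apart from WT in the same direction. None of them was also apart from TG placebo, from which they differed by 0.02 to 0.68 in size. They were Snurf, Fgf12, Nbdy, Ndufa11, Olfm3, Gucy1a2, Nrep, Camk4, Npcd, Homer2, Ankrd45 and Gas7. Fgf12, an intracellular regulator of sodium channels, stood at 8.17, 8.32 and 7.90 in WT placebo, at 4.81, 4.69 and 4.93 in TG placebo and at 4.89, 5.05 and 5.17 in TG NM-101. Camk4, a calcium-calmodulin kinase of neurons, stood at 6.42, 6.36 and 6.35, then 4.12, 3.69 and 3.86, then 3.89, 4.09 and 4.00. In these genes the TG groups sat side by side and WT stood alone. A transcript length that differs between the annotations behind the WT and TG values would shift both TG groups alike, and cannot be told apart here from an effect of genotype.

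Among genes of astrocytes more were apart higher than lower in TG NM-101. Of 29 compared, 8 were apart higher and 2 apart lower (27.6% and 6.90%, against 10.1% and 4.86% of all genes), and the list's median difference was 0.40, against 0.05 for all genes. Its median in the single libraries was 0.50, 0.31 and 0.34 in TG NM-101, 0.29, 0.07 and 0.04 in TG placebo and -0.03 to 0.01 in WT placebo. The list's median length is 2689 bases. With the length trend removed 10 were apart higher and 3 lower, with a median of 0.32. Of its members 5 were apart from both groups, Cldn10, Fam107a, Id3, Sox9 and Mlc1, all higher. Of all genes, 2.20% were higher than both groups and 0.338% lower. Cldn10, a claudin of astrocytes, stood at 4.27 to 4.64 in WT placebo, 5.29 to 5.49 in TG placebo and 5.81 to 5.92 in TG NM-101. Id4, an inhibitor of basic helix-loop-helix factors, was apart from WT but overlapped TG placebo, at 5.40 to 5.80 against 5.08 to 5.61. Structural astrocyte markers differed less: Gfap stood at 8.12, 7.75 and 7.80 in TG NM-101 and at 7.41, 7.50 and 7.85 in WT placebo, which overlapped.

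The glutamate transporter Slc1a2 (chromosome 2, 102658239 to 102790784) went the other way. It stood at 10.66, 10.69 and 10.55 in WT placebo and at 8.95, 8.75 and 9.05 in TG NM-101, a difference of -1.72 ± 0.10 (SE, n = 3 per group). TG placebo was lower still, at 8.27, 8.26 and 8.19, so TG NM-101 lay between the other groups with no overlap (limma adjusted p = 0.0557 against TG placebo). The water channel Aqp4 followed the same order in its means, with a difference of -0.48 from WT that is under the size set for apart, at 5.36 to 5.53 in WT placebo, 4.47 to 5.05 in TG placebo and 4.66 to 5.24 in TG NM-101. In bulk samples such as these, more or fewer cells of a type and more or less RNA per cell cannot be told apart.

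Microglial genes, which mark the resident macrophages of brain, had 7 of 28 members apart higher (25.0%) and 0 apart lower. The shares of all genes were 10.1% and 4.86%, and the list's median difference was 0.25. In single TG NM-101 libraries the list's median was 0.25, 0.18 and 0.25, in TG placebo -0.05, 0.09 and -0.02. C1qb, a chain of the complement initiator C1q, stood at 5.38, 5.54 and 5.71 in WT placebo, at 5.87, 5.76 and 5.76 in TG placebo and at 6.09, 6.25 and 6.16 in TG NM-101. The Fc receptor chain Fcer1g stood at 3.37 to 3.92, 3.80 to 3.99 and 4.11 to 4.42 in that order. Both were apart from both groups, but both transcripts are fairly short and neither stayed apart from WT with the length trend removed (0.48 and 0.20). Csf1r, the receptor that microglia need to survive, is longer and stayed apart from both groups, with a difference from WT of 0.54. Cd68, a lysosomal protein of phagocytes, and Olfml3 were apart from WT but overlapped TG placebo. The length used for Olfml3, 5465 bases, exceeds the span of its gene in the genome, and a length set too long lowers the WT level alone. Of the 28 members, 20 differed from WT upward and 8 downward, and 11 lay above all WT libraries and 1 below in level and rank. The 1 below was Aif1, which differed by -0.43. P2ry12 overlapped between groups, whereas Cx3cr1 and C1qa lay above all WT libraries, with mean differences of 0.28 and 0.40. After removal of the length trend the microglial list had 4 members apart higher, 1 lower and a median of 0.16. Of all genes, 8.23% were then apart higher and 5.78% lower.

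Endothelial and mural genes had 0 of 25 members apart higher and 7 apart lower (28.0%), against 10.1% and 4.86% of all genes. Their median difference was -0.32. The list's median in TG NM-101 was -0.31, -0.32 and -0.40, in TG placebo -0.33, -0.07 and -0.03, and in WT placebo 0.23, -0.01 and -0.22. All TG NM-101 medians lay below the WT medians, but these were themselves spread widely, and without WT replicate 3 the median was -0.50. The 7 were Ly6a, Ly6c1, Slco1a4, Tek, Itm2a of endothelium and Acta2 and Myl9 of smooth muscle. Tek had a mean of 0.96 in TG NM-101, under the filter level of 1, and passed the filter through the other groups (1.63 in WT placebo). Ly6c1 stood at 5.16, 5.44 and 5.27 in WT placebo, at 4.59, 4.93 and 5.14 in TG placebo and at 4.71, 4.05 and 4.05 in TG NM-101. Acta2, smooth muscle actin, stood at 2.20 to 2.48, 1.20 to 1.61 and 1.26 to 1.86, with the TG groups overlapping. Cldn5, the tight junction claudin of brain endothelium, overlapped between groups, at 4.83, 4.22 and 3.65 in WT placebo and 4.10, 4.28 and 3.56 in TG NM-101. The length trend changed neither count.

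**Figure D3:**
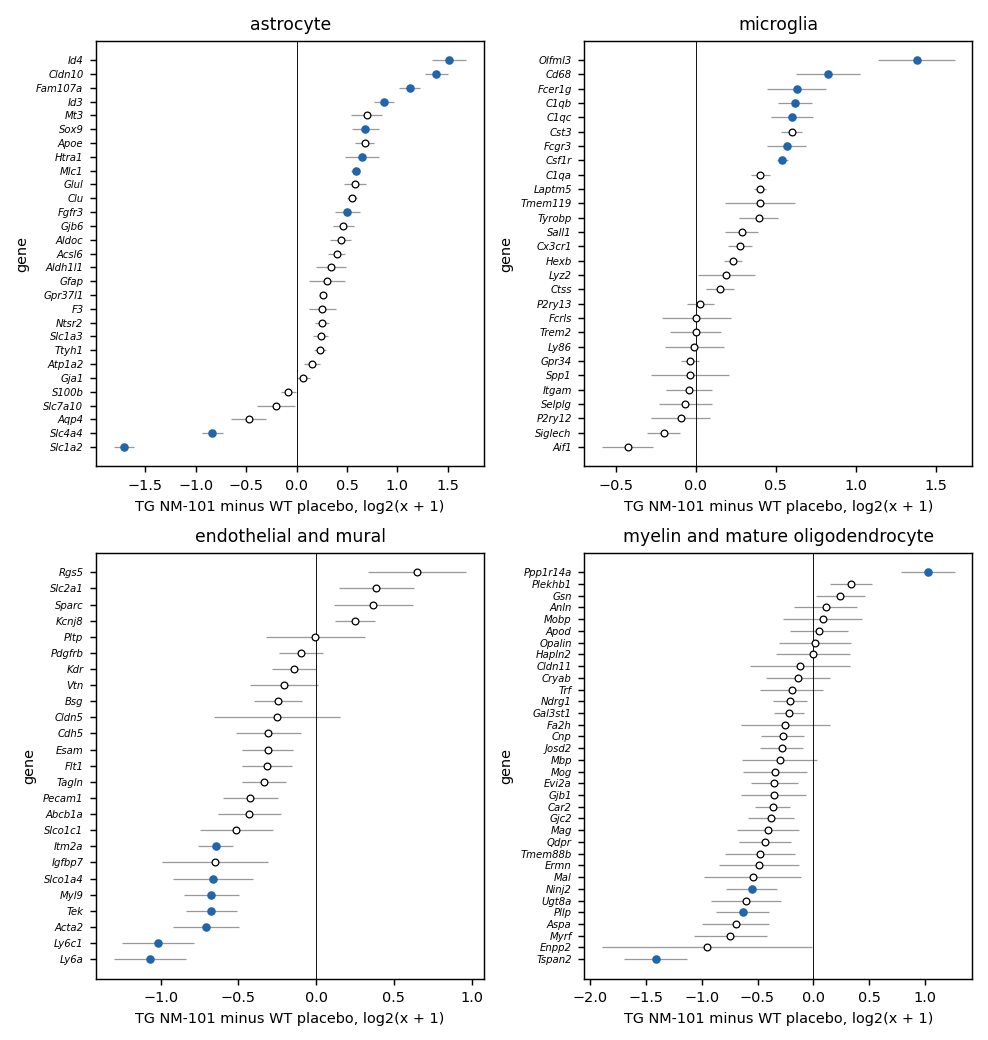
Mean difference TG NM-101 minus WT placebo in log2(x + 1) (x axis, bars are SE, n = 3 per group) for genes of 4 cell type lists (y axis). Filled points mark genes apart from WT placebo: 8 higher and 2 lower among astrocyte genes, 7 higher among microglial genes, 7 lower among endothelial and mural genes, and 1 higher and 3 lower among myelin genes.

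Myelin genes, those of the labelled cell type, had 1 of 35 members apart higher (2.86%) and 3 apart lower (8.57%). Of all genes, 10.1% were apart higher and 4.86% lower. The list's median difference was -0.34, with 7 members above WT and 28 below. Myelin genes varied widely within groups. The list's median was -0.04, -0.62 and -0.33 in TG NM-101, 0.12, -0.34 and 0.20 in WT placebo and 0.30, -0.78 and -0.84 in TG placebo, and without TG NM-101 replicate 2 the median difference was -0.19. Mbp stood at 11.25, 10.36 and 10.85 in TG NM-101 and at 11.07, 10.78 and 11.52 in WT placebo. Mog, a protein of the outer myelin surface, stood at 5.25, 4.62 and 4.97 against 5.51, 4.84 and 5.52. In both genes the groups overlapped. Tspan2, a tetraspanin of oligodendrocytes, was apart lower, at 5.25, 4.61 and 5.02 against 6.64, 5.95 and 6.53 in WT placebo, and TG placebo stood at 5.55, 4.28 and 4.15. Pllp and Ninj2 were the other members apart lower, and Ppp1r14a was apart higher, by 1.02, beside 0.93 in TG placebo.

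The oligodendrocyte lineage factors Olig2 and Sox10 overlapped between the groups. Olig2 stood at 3.96, 3.67 and 3.78 in TG NM-101 and at 3.55, 3.54 and 3.93 in WT placebo, and Sox10 at 4.05, 3.72 and 3.83 against 3.79, 3.83 and 3.71. Of 18 lineage and precursor genes, 2 were apart higher, Tnr and C1ql1, and 2 apart lower, Vcan and Tcf7l2. Each count is 11.1% of the list, against 10.1% and 4.86% of all genes. Tcf7l2, a Wnt-pathway transcription factor of newly formed oligodendrocytes and of thalamic neurons, stood at 3.63, 2.12 and 1.89 in WT placebo, 3.47, 1.63 and 1.68 in TG placebo and 1.76, 1.79 and 1.49 in TG NM-101. Vcan, a matrix proteoglycan of precursors, was apart from both groups, at 2.57, 2.09 and 2.51 in WT placebo, 1.98, 2.14 and 2.20 in TG placebo and 1.91, 1.70 and 1.66 in TG NM-101. Tnr, another matrix protein, was apart higher by 1.70, beside 1.42 in TG placebo. Of 14 genes reported in disease-associated oligodendrocytes, 3 were apart higher (Plin4, the complement gene C4b and the cell cycle inhibitor Cdkn1a) and 1 was apart lower, the alarmin Il33. These counts are 21.4% and 7.14% of the list, against 10.1% and 4.86% of all genes. Il33 stood at 5.11, 5.04 and 5.24 in WT placebo, 4.83, 4.25 and 4.25 in TG placebo and 4.77, 4.00 and 4.47 in TG NM-101. TG placebo differed from the same WT libraries by 0.88, 0.56, 0.80 and -0.68 in these 4 genes.

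Sncg, the gamma member of the synuclein family, was apart from both groups, at 2.38, 2.09 and 2.43 in WT placebo, 2.96, 2.32 and 2.46 in TG placebo and 3.33, 3.25 and 3.19 in TG NM-101. It rests on 38, 39 and 44 counts in the WT libraries. Among 24 synucleins and synaptic partners, 3 were apart higher (12.5%, against 10.1% of all genes) and 0 lower. Rims1, an organizer of the presynaptic active zone, was among them and differed by 2.15 from WT, beside 1.75 in TG placebo. General neuronal genes had 1 of 25 members apart higher, the neurofilament Nefl, and 2 apart lower, Rbfox3 and Celf4. These counts are 4% and 8% of the list, against 10.1% and 4.86% of all genes. Rbfox3, the nuclear antigen NeuN of mature neurons, stood at 7.42, 7.31 and 7.45 in WT placebo, 6.69, 6.79 and 6.79 in TG placebo and 6.65, 6.66 and 6.63 in TG NM-101.

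Genes of neuron subtypes differed in both directions. Of 18 genes of GABA interneurons, 3 were apart higher (16.7%, against 10.1% of all genes), the neuropeptides Sst, Npy and Cort. The list's median difference was 0.02, with 10 members above WT and 8 below. Somatostatin, Sst, stood at 7.97, 8.04 and 8.08 in WT placebo, 8.34, 9.14 and 9.13 in TG placebo and 8.94, 9.34 and 9.12 in TG NM-101, and differed by 1.10 (0.74 with the length trend removed). Kcnc1, a potassium channel of fast-spiking cells, was lower than in both groups, with a difference from WT of -0.60. Genes of cortical and hippocampal excitatory neurons had 1 of 19 members apart higher, Prox1 of dentate granule cells, and 3 lower, Mef2c, Bcl11b and Ccn2. Their shares were 5.26% and 15.8%, against 10.1% and 4.86% of all genes. Striatal genes had 2 apart higher and 2 lower of 15 (13.3% each, against 10.1% and 4.86% of all genes). Thalamic, midbrain and hindbrain genes had a median of -0.55 over 12 members, but -0.11 without WT replicate 1, in which Tcf7l2 stood at 3.63 against 2.12 and 1.89 in the other WT libraries.

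Choroid plexus and ependymal genes had 4 of 16 members apart higher (25%, against 10.1% of all genes). Rarres2 was among them, and the others, Ccdc153, Tmem212 and Dynlrb2, are genes of motile cilia on ependymal cells. Ccdc153 stood at 3.08, 0.48 and 1.90 in WT placebo, 3.55, 1.59 and 1.30 in TG placebo and 3.93, 3.74 and 3.32 in TG NM-101. The secretory choroid genes, by contrast, were high in WT replicate 1, TG placebo replicate 1 and TG NM-101 replicate 2 and low elsewhere, as Ttr shows. The list's median ran from -1.05 to 1.34 within WT placebo, and the median difference of 0.28 between the groups ran from -0.19 to 1.31 when single libraries were left out. What part of choroid plexus each sample held was not tested. Blood cell genes had 1 member above the level filter. Fibroblast and meningeal genes had 1 apart higher and 1 lower of 14 (7.14% each, against 10.1% and 4.86% of all genes).

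**Figure D4:**
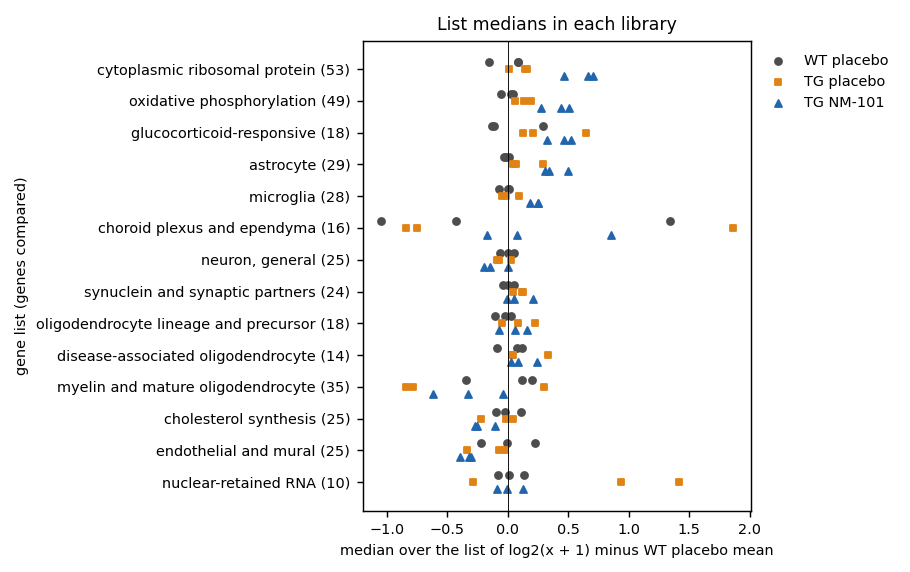
Median over the compared genes of 14 lists of log2(x + 1) minus the WT placebo mean in each of the 9 libraries (x axis; number of genes compared in parentheses, 1 point per library). The 3 TG NM-101 libraries lie to the right of the other 6 for cytoplasmic ribosomal protein, oxidative phosphorylation, astrocyte and microglial genes, and within the spread of the others for myelin, choroid plexus and nuclear-retained RNA.

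Among genes of Toll-like receptor signalling and NF-kB, 1 was apart. Of 33 on the list 21 passed the level filter, 0 were apart higher and 1 was apart lower, Ikbkg, the regulatory subunit of the IkB kinase, with a median of 0.10 over the list. That 1 gene is 4.76% of those compared, while 4.86% of all genes were apart lower and 10.1% higher. Ikbkg stood at 3.73, 3.72 and 3.69 in WT placebo and at 2.90, 2.93 and 2.86 in TG NM-101, and TG placebo stood at 2.90, 2.98 and 2.77. Tlr2 lay under the level filter, at 0.728, 0.221 and 0.390 in WT placebo, 0.536, 0.220 and 0.341 in TG placebo and 0.588, 0.509 and 0.696 in TG NM-101. Tlr4, the lipopolysaccharide receptor, stood at 0.502, 0.375 and 0.565 in WT placebo and at 0.590, 0.589 and 0.766 in TG NM-101, with TG placebo lower at 0.380 to 0.410. Also under the filter, the adaptor Tirap stood at 1.19 to 1.35 in WT placebo, 0.615 to 0.757 in TG placebo and 0.676 to 0.769 in TG NM-101, and the NF-kB subunit Rel at 0.071 to 0.144, 0.179 to 0.300 and 0.383 to 0.684. Neither overlapped between TG NM-101 and WT placebo. The adaptor Myd88 stood at 1.52, 1.97 and 1.83 in WT placebo and 1.95, 2.00 and 1.51 in TG NM-101, which overlapped. Rela, the main transactivating NF-kB subunit, stood at 2.76, 2.76 and 2.78 in WT placebo and 2.97, 2.91 and 3.05 in TG NM-101, above WT in all 3 libraries by 0.21, under the size set for apart. Nfkbia, an inhibitor that NF-kB induces, overlapped, with a difference of -0.03. Of 22 cytokines and chemokines 9 passed the filter, and Il33 was the one apart. Tnf was listed at 0 in all TG NM-101 and WT placebo libraries, and Il1b stood between 0 and 0.652 in them. Interferon response and antigen presentation genes had 2 apart higher, Tap2 and the immunoproteasome subunit Psmb8, and 2 apart lower, Ifit3 and Gbp3, of 21. Each count is 9.52% of the list, against 10.1% and 4.86% of all genes.

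Ribosomal protein genes, most of them short, had the largest number of members apart of any list, and were also the list with the most genes compared. Of 53 compared, 26 were apart higher and 1 lower (49.1% and 1.89%, against 10.1% and 4.86% of all genes), with a median difference of 0.61. In the single TG NM-101 libraries the list's median was 0.46, 0.71 and 0.66, against 0.01 to 0.16 in TG placebo and -0.16 to 0.09 in WT placebo. Their median length is 833 bases. Once the trend was removed 14 were apart higher and 2 lower (8.23% and 5.78% of all genes were), and the median was 0.26. Rps14, a protein of the small subunit, stood at 10.11, 10.44 and 10.41 in WT placebo, 10.52, 10.23 and 10.44 in TG placebo and 11.04, 11.34 and 11.27 in TG NM-101. The difference from WT was 0.90 ± 0.14 (SE, n = 3 per group; limma adjusted p = 0.0485 against TG placebo), and 0.38 with the length trend removed, when Rps14 was no longer apart. Rps20, Rps26, Rps27, Rps23, Rps10 and Rps25 stayed apart from both groups. Rps20, listed here with a transcript length of 3706 bases, stood at 6.00, 6.21 and 6.20 in WT placebo, 9.24, 9.00 and 9.22 in TG placebo and 9.49, 9.76 and 9.74 in TG NM-101. Many ribosomal protein genes have near-identical processed pseudogenes, and how reads were shared among copies is not given in the sources used here.

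Subunits of oxidative phosphorylation followed the ribosomal pattern more weakly. Of 49 compared 16 were apart higher (32.7%, against 10.1% of all genes) and 0 lower, with a median of 0.41. With the length trend removed 8 were apart higher and 2 lower (8.23% and 5.78% of all genes were), and the median was 0.10. Ndufa11, a complex I subunit that is not on this list, was apart lower by a difference of -2.41, beside -2.39 in TG placebo. Uqcrq, a subunit of complex III, stood at 6.57, 6.88 and 6.98 in WT placebo, 8.65, 8.71 and 8.79 in TG placebo and 9.03, 9.23 and 9.09 in TG NM-101, apart from both in either version. Sdhc, an anchor subunit of complex II, stood at 5.29, 5.27 and 5.32 in WT placebo and at 6.79, 6.79 and 6.78 in TG NM-101, and TG placebo stood at 6.58 to 6.85. Small nuclear and nucleolar host RNAs, also short, had 6 of 11 members apart higher and 1 lower. These counts are 54.5% and 9.09%, against 10.1% and 4.86% of all genes, and the higher share was the largest of any list. Their median was 0.92 (0.52 without TG NM-101 replicate 2). With the length trend removed 3 were apart higher and 1 lower, and the median was 0.18. TG placebo differed from WT by a median of 0.98 over the same list.

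**Figure D5:**
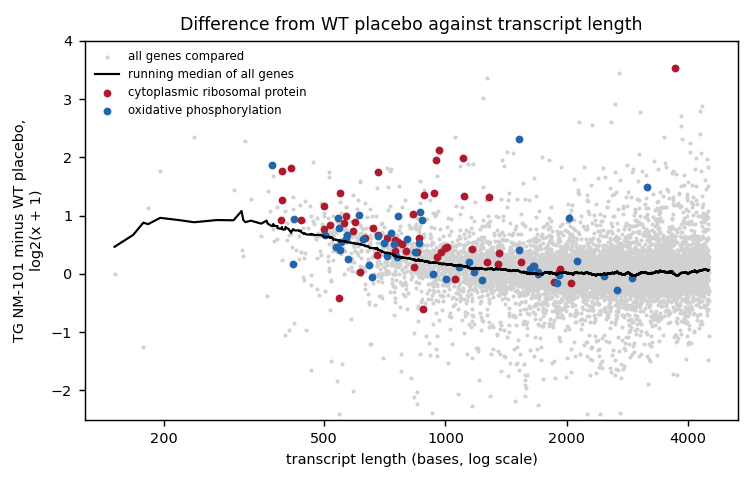
Difference TG NM-101 minus WT placebo in log2(x + 1) (y axis) against transcript length in bases (x axis, log scale) for all genes compared (grey), 53 cytoplasmic ribosomal protein genes (red) and 49 oxidative phosphorylation genes (blue), with the running median of all genes (black line). Genes outside the axis limits are not drawn. Many points of both lists lie along the rise of the line at the short end, whereas Rps20 and Uqcrq stand well above it.

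Glucocorticoid-responsive genes had 8 of 18 members apart higher (44.4%, against 10.1% of all genes) and 0 lower, with a median of 0.41. With the length trend removed 7 were apart higher (8.23% of all genes were), with a median of 0.32. TG placebo differed from WT by a median of 0.39, and TG NM-101 from TG placebo by 0.01. In single libraries the list's median was 0.52, 0.33 and 0.46 in TG NM-101, 0.65, 0.13 and 0.21 in TG placebo and -0.13, -0.12 and 0.29 in WT placebo. TG NM-101 lay above all WT libraries, whereas TG placebo replicates 2 and 3 lay below WT replicate 3. Among the list's genes Fam107a, Mt1, Mt2 and Sult1a1 were apart from both groups, all higher, as were 2.20% of all genes. Sult1a1, a phenol sulfotransferase, stood at 3.80, 2.98 and 3.20 in WT placebo, 3.97, 3.90 and 4.11 in TG placebo and 4.62, 4.93 and 4.29 in TG NM-101. Plin4, a lipid droplet coat protein, Cdkn1a, and the transcription factors Klf9 and Zbtb16 were apart from WT but not from TG placebo. Plin4 stood at 1.65, 0.59 and 1.71 in WT placebo, 3.50, 1.66 and 1.44 in TG placebo and 3.23, 2.55 and 2.21 in TG NM-101.

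Cholesterol synthesis genes, on which myelin depends, had a median of -0.14 (-0.07 without WT replicate 2), with 2 apart higher and 2 lower of 25. Each count is 8% of the list, against 10.1% and 4.86% of all genes. Hmgcs1, the synthase that feeds the pathway, stood at 6.45, 6.75 and 6.46 in WT placebo, 5.88, 5.86 and 5.89 in TG placebo and 5.90, 5.83 and 6.02 in TG NM-101. Cyp51, a sterol demethylase, differed by -0.66 from WT, beside -0.63 in TG placebo. The late enzymes Dhcr7 and Nsdhl differed by -0.06 and -0.36. Higher than in WT were Sc5d and the regulator Srebf1, by 1.07 and 0.60, beside 0.86 and 0.47 in TG placebo.

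Stress and clearance pathways had shares of members apart higher from 0 to 15.6%, around the 10.1% of all genes. Nrf2 targets and glutathione genes had 5 apart higher and 0 lower of 32 (15.6%), of which 2 stayed apart with the length trend removed. Gclm, a subunit of the enzyme that limits glutathione synthesis, differed by 1.65, beside 1.30 in TG placebo, and the glutathione transferase Gstm1 was apart from both groups at 8.28 to 8.49 against 7.71 to 7.96 in WT placebo and 7.81 to 7.94 in TG placebo (0.46 with the length trend removed, no longer apart). Autophagy and lysosome genes had 4 apart higher and 0 lower of 38 (10.5%). Scarb2, the receptor that carries glucocerebrosidase to lysosomes, was apart from both, at 3.47, 3.48 and 3.08 in WT placebo, 4.47, 4.46 and 4.17 in TG placebo and 4.87, 4.59 and 5.20 in TG NM-101. Becn1, a core initiator of autophagy, stood at 4.96 to 5.08 in WT placebo, with TG placebo at 6.02 to 6.12 and TG NM-101 at 5.99 to 6.15 level with each other. Heat shock genes had 3 apart higher (12.5%) and 1 lower of 24, of which Hspb8, a small heat shock protein, was apart from both groups. Dnaja1 was apart lower by a difference of -1.05, beside -1.09 in TG placebo. Unfolded protein and integrated stress response genes had 0 apart in either direction of 23. The p53 and apoptosis genes had 1 apart higher, Cdkn1a, and 1 lower of 22, the death receptor Fas, which was apart from both at 0.47 to 0.95 against 1.37 to 1.49 in WT placebo. All Fas values in TG NM-101 were under the filter level of 1, so Fas was compared only because the other groups were higher.

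Immediate early genes, which neuronal activity induces, had 2 apart higher, Egr4 and Junb, and 1 lower, Jund, of 23. These counts are 8.70% and 4.35% of the list, near the 10.1% and 4.86% of all genes. Junb stood at 4.74, 4.79 and 4.83 in WT placebo, 4.81, 5.33 and 5.22 in TG placebo and 5.32, 5.31 and 5.75 in TG NM-101. Among 10 RNAs retained in nuclei, Malat1 and Miat were apart higher than WT (20%, against 10.1% of all genes) and 0 were apart lower. Malat1 stood at 6.21, 5.27 and 6.13 in WT placebo and at 7.59, 7.65 and 7.09 in TG NM-101, a narrow range beside that of TG placebo, 6.11, 9.00 and 9.48. Meg3, another nuclear RNA, stood at 6.37, 5.90 and 5.64 in WT placebo, 4.77, 8.64 and 8.69 in TG placebo and 5.92, 5.87 and 5.23 in TG NM-101. TG placebo replicates 2 and 3 were thus far above replicate 1 and above every TG NM-101 library in these RNAs, whereas TG NM-101 and WT placebo overlapped in Meg3. Genes with detained introns had 2 apart higher and 3 lower of 29 (6.90% and 10.3%, against 10.1% and 4.86% of all genes). Of these Hnrnpa2b1, a splicing and RNA transport factor, was apart from both groups, at 7.43, 7.40 and 7.34 in WT placebo, 6.91, 7.05 and 7.14 in TG placebo and 6.73, 6.77 and 6.68 in TG NM-101.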

How the data were processed

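RNA was sequenced from 9 mouse brain samples, 3 per group. The authors deposited 1 table of 33299 transcripts, whose WT columns hold whole-number counts and whose TG columns hold log2 values, read here from the values as deposited log2(FPKM + 1). Bowtie2 and mm10 are named per the submitters' processing notes; which program counted reads, and on which annotation, is not given in the sources used here.

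WT counts were divided by library total and transcript length (GENCODE M21), since both were needed to match the TG unit. Linear values were summed per symbol (RefSeq gene table, GRCm38.p6, 32394 transcripts named) and written as log2(x + 1), a pseudocount of 1. Of 23798 genes, 22512 had a length for every transcript, and the 12410 with a mean of at least 1 over 9 libraries were compared. Ranks were taken within each library. TG NM-101 and TG placebo were compared with limma 3.58.1 (R 4.3.3, trend and robust, Benjamini-Hochberg over all 12410 genes). The scripts were tested on simulated data. Differences on this scale understate the change of low genes.

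Genes named were a fixed set of 28 and, among genes above 0 in every library with a mean of at least 2, the 12 largest differences from WT in each direction and the 8 largest in each direction among genes apart from both groups, with up to 4 apart members of each of 32 lists. Some genes that this rule names are not reported here. Predicted loci, pseudogenes and small RNAs were not named by rank. Other genes given with values (further list members, Tirap, Rel, Zc3h7a, Cmss1, Filip1l, Rnu12, Tlr4, Myd88, Rela, Nfkbia, Tnf, Il1b, Csf1r, Id3, Mlc1, P2ry12, Klf9, Zbtb16 and Snord42a) were added after their values were seen. The groups compared, the genes and the lists were chosen with earlier results of these data known. Alternatives were another pseudocount, filter, scaling and difference, ranks or levels alone, genes of 1 transcript, leaving out each library, a replicate block, and removal of the length trend.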

Additional observations from a re-analysis of the deposited data

How the results depend on the processing

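With only genes of a mean log2 of at least 3, 817 genes were apart higher than WT placebo, 369 lower and 20 lower than both groups. With genes of 1 transcript only, which are 8664, 1078 were apart higher and 237 lower, and 212 and 20 against both. Over all 12410 genes 1249 were apart higher and 603 lower, so leaving out genes of several transcripts cut the lower count more. Slc1a2, Fgf12 and Ly6a, all lower, were summed over 3, 4 and 6 transcripts, whereas Snurf, Ndufa11 and Camk4, also lower, have 1. Why direction went with the number of transcripts was not tested. By ranks alone the counts were 2079 higher and 2610 lower, and 468 and 363 against both groups. With a difference of at least 1 they were 462 and 197, and 100 and 13 against both. With the length trend removed 76 genes were lower than both. Leaving out each library in turn gave 282 to 510 genes higher than both and 38 to 132 lower than both, the highest counts without TG placebo replicate 1. A smaller pseudocount, no filter on low values, median-ratio scaling and levels alone kept these counts within 1.5 times.

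The limma count of 16 between TG NM-101 and TG placebo became 3 with a replicate block, 4 with median-ratio scaling and 2 with the length trend removed. The 3 with a replicate block were Cmss1, Zc3h7a and Rnu12, each listed at 0 in all TG NM-101 libraries. The limma count was 0 on genes above 0 in every library, where 1852 genes had an unadjusted p under 0.05. It ran from 3 to 2194 when each library was left out, and was 2194 without TG placebo replicate 1. Deviations of same-numbered TG NM-101 and TG placebo libraries correlated at 0.05, -0.02 and -0.01 across genes. Such values show no pairing by replicate number, but cannot exclude one with small effects. The median of the autophagy list was -0.0133 under median-ratio scaling and ran from -0.00842 to 0.0820 over libraries left out, against 0.06. That of the p53 list was 0.0179 with a mean log2 of at least 3 and 0.0863 with genes of 1 transcript, against -0.06. The causes were not tested. Group size limits all counts: with 3 libraries per group and no common unit, no error rate can be given for a difference from WT.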
